A study of Mus musculus with 10 samples.

Results

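The collagen and laminin genes of mouse embryonic stem cells (mESCs) were followed across all 10 RNA-seq libraries of the series. Every row of the expression table was taken whose symbol is *Col*, a number, *a* and a number, or *Lama*, *Lamb* or *Lamc* with a number, and 54 of the 34591 genes matched. They comprised 11 laminin chains (5 alpha, 3 beta and 3 gamma) and 43 collagen chains. The 11 laminin chains and the 6 chains of collagen IV formed the basement membrane class (17 genes), the chains that build banded fibrils formed the fibrillar class (11 genes), and 26 further collagens made up the rest.

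The study asked what becomes of gene expression in mESCs that lack *Dnttip1* or *Elmsan1*, which encode scaffold subunits of the mitotic deacetylase complex (MiDAC). The cells were male C57/BL6 Bruce-4 mESCs, kept without feeder cells in 2iL medium, a defined medium that holds mESCs in the naive state through inhibitors of MEK and GSK3β together with LIF. For *Dnttip1* the clones were D2A7 and D1E6 and for *Elmsan1* E2E8 and E2G7, and each of these and the WT line had 2 libraries, so that 4 libraries of each knockout were set against 2 of WT. Each clone was made with CRISPR/Cas9 and grown from a single sorted cell. The clones are called by their codes because the labels and the design text number them differently. Whether the WT line is a clone is not stated. The study calls its replicates biological, but the sources used here do not say whether both libraries of a line came from separate cultures. The p-values therefore measure the spread between libraries, and a knockout rests on 2 clones rather than on 4 independent samples.

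Basement membranes are thin sheets of matrix on which cells rest. Laminins are trimers of an alpha, a beta and a gamma chain that assemble on the cell surface and bind integrins and dystroglycan, and collagen IV forms a second network that is linked to the laminin network. Fibrillar collagens, in contrast, align into the fibrils of connective tissue. In the early mouse embryo, laminin and collagen IV are laid down by the first epithelia, and mESCs are known to make laminin themselves.

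The libraries held between 30182379 and 84291842 fragments on genes, the lowest 2 being those of WT. *Dnttip1*, the gene cut in D2A7 and D1E6, had 8.15 and 8.43 FPKM (fragments per kilobase of exon, scaled to the library's total) in WT and 2.59 to 4.57 FPKM in the *Dnttip1* KO libraries. *Elmsan1*, listed under its older symbol *C130039O16Rik*, had 5.53 and 5.39 FPKM in WT and 4.62 to 5.18 FPKM in the *Elmsan1* KO libraries, so its RNA level does not check these labels. All 11 naive mESC markers were above 0.1 FPKM in every library and none was called in either knockout. Of all genes tested, 3.26% were called higher and 3.24% lower in *Dnttip1* KO cells, and 2.74% and 3.68% in *Elmsan1* KO cells. At such shares, no call among 11 genes says little about these markers. As deposited, the naive markers summed to 1438 and 1442 FPKM in WT and to less in every KO library. The sum was 1423 to 1432 FPKM in D2A7, 1293 to 1297 FPKM in D1E6, 1171 to 1180 FPKM in E2E8 and 1303 to 1305 FPKM in E2G7. Once the libraries were scaled, D2A7 overlapped WT and the other clones stayed below it. The part of this sum in the results was not tested. As a group, genes of chromosome 8 were higher in each of the 4 clones than in WT, by medians of 0.34 to 0.36 on the log2 scale, and those of chromosome 6 were higher by 0.29 to 0.42 in D1E6, E2E8 and E2G7. In bulk libraries, fewer cells of a type and less RNA per cell cannot be told apart.

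A few laminin chains carried most of the expression. Averaged over the 10 libraries, 7 members had 5 FPKM or more, namely 6 laminin chains and *Col18a1*, 3 lay between 1 and 5 FPKM, 14 between 0.1 and 1 FPKM and 30 under 0.1 FPKM. *Lamc1*, the common gamma chain of most laminins, was the most abundant with a mean of 73.6 FPKM and made up 40.5% to 49.8% of the summed laminin FPKM of a library. *Lama5* (25.8 FPKM), *Lama1* (24.3 FPKM), *Lamb2* (14.6 FPKM) and *Lamb1* (5.63 FPKM) were lower. The levels of *Lama5* and *Lama1* overlapped between libraries and their order differed from line to line. Collagen IV was low by comparison, since *Col4a1* averaged 1.67 FPKM and *Col4a2* 0.604 FPKM, while *Col4a3* and *Col4a4* had 1 and 2 fragments in all 10 libraries together. The highest fibrillar chain was *Col11a1* with 1.19 FPKM. *Col1a1* and *Col1a2*, the chains of the type I collagen that dominates connective tissue, had at most 36 and 10 fragments in any library.

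**Figure D1:**
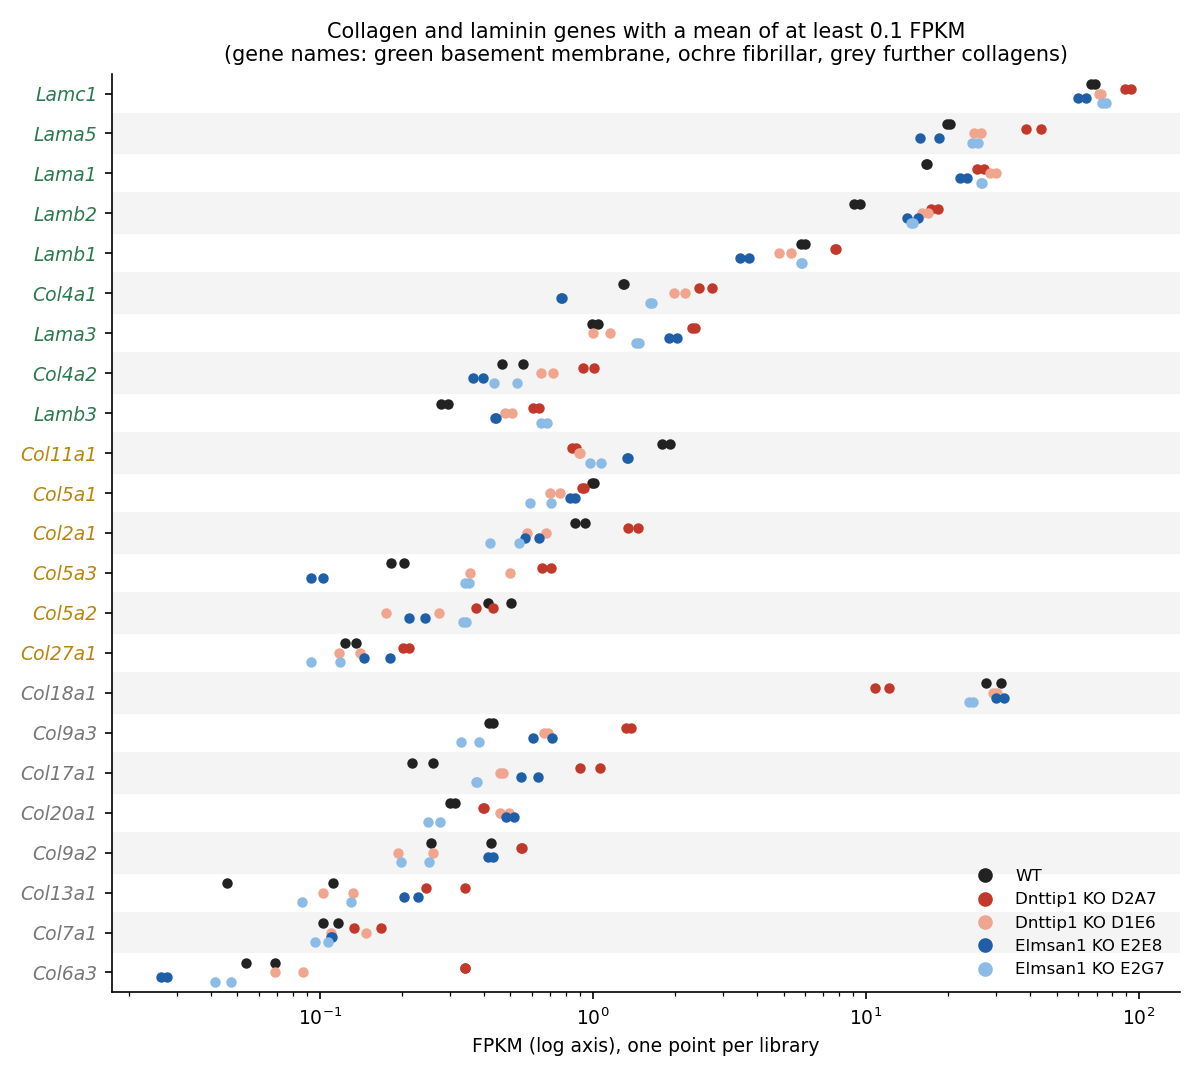
FPKM (log axis) of 23 of the 24 collagen and laminin genes averaging 0.1 FPKM or more, 1 point per library and coloured by line, ordered by mean within the basement membrane, fibrillar and further collagen classes. Laminin chains reach from 0.278 to 93.8 FPKM, every fibrillar chain shown stays below 2 FPKM, and *Col18a1* is the only further collagen above 2 FPKM.

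For each comparison, genes reaching 0.1 FPKM in 2 or more of its libraries were tested with limma on log2(FPKM + 0.1), and a gene was called at a fold of at least 1.5 with an unadjusted p under 0.01, the thresholds of the study's methods. Adjusted p-values are Benjamini-Hochberg values over all genes tested. In *Dnttip1* KO cells, 25 of the 54 members could be tested against WT, and 6 were called higher and 1 lower. Of all 17435 genes tested, 3.26% were called higher and 3.24% lower. The median log2 fold change of the tested members was 0.57, beside 0.02 over all genes. For *Elmsan1* KO cells, 23 members could be tested, 2 were called higher and 2 lower, and the shares of all 17205 genes were 2.74% and 3.68%. Here the median was 0.00, the same as the 0.00 over all genes. *Lama4* and *Col6a3* passed the filter of the *Dnttip1* KO comparison only through the D2A7 libraries. Both knockouts were compared with the same WT libraries, so their values are given side by side. When libraries from the same clone were allowed to correlate (correlations of 0.704 and 0.768), 5 of the 11 calls against WT remained, among them *Lamb2*, *Lama1* and *Col11a1* in *Dnttip1* KO cells and *Lamb2* in *Elmsan1* KO cells.

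*Lamb2*, a laminin beta chain best known from the basement membranes of kidney and neuromuscular junction, was the one member called higher in both knockouts. It lies on chromosome 9 of NCBIM37 (108382193 to 108392861, + strand). Its level was 9.50 and 9.03 FPKM in WT, 17.3 and 18.4 FPKM in D2A7, 16.9 and 16.1 FPKM in D1E6, 14.2 and 15.5 FPKM in E2E8, and 14.6 and 14.8 FPKM in E2G7. All 8 KO libraries lay above both WT libraries without overlap. *Lamb2* rose 1.81-fold in *Dnttip1* KO cells (log2 0.86 ± 0.08 (SE), adjusted p = 0.0051) and 1.56-fold in *Elmsan1* KO cells (log2 0.65 ± 0.07 (SE), adjusted p = 0.0051). Taken one by one, each of the 4 clones also had *Lamb2* called higher than WT. Without the second WT library the log2 fold change in *Elmsan1* KO cells was 0.58, just under the fold threshold (adjusted p = 0.069). With libraries from the same clone allowed to correlate, both calls remained and the adjusted p-values were 0.073 and 0.14.

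*Lama1*, the alpha chain of the first embryonic laminin, had 16.7 and 16.8 FPKM in WT. It had 25.5 and 27.1 FPKM in D2A7, 30.0 and 28.6 FPKM in D1E6, 22.1 and 23.6 FPKM in E2E8, and 26.5 and 26.7 FPKM in E2G7. Both WT libraries were below every KO library. In *Dnttip1* KO cells, *Lama1* rose 1.63-fold (log2 0.70 ± 0.07 (SE), adjusted p = 0.0065). The difference in *Elmsan1* KO cells was 1.45-fold and so below the fold threshold (log2 0.53 ± 0.09 (SE), adjusted p = 0.020). *Lama1* is on the + strand of chromosome 17 (68046605 to 68171985).

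*Lamc1*, on the − strand of chromosome 1 (155066052 to 155179916), was not called in either knockout. It had 66.6 and 69.3 FPKM in WT, 89.2 and 93.8 FPKM in D2A7, 72.5 and 71.4 FPKM in D1E6, 60.0 and 64.1 FPKM in E2E8, and 73.2 and 75.6 FPKM in E2G7. The D2A7, D1E6 and E2G7 libraries were above WT and those of E2E8 below it. The log2 differences were 0.23 ± 0.13 (SE) for *Dnttip1* KO and −0.02 ± 0.10 (SE) for *Elmsan1* KO cells.

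*Lamb3*, a beta chain of epithelial laminin, was much lower, with 0.295 and 0.278 FPKM in WT. It had 0.634 and 0.603 FPKM in D2A7, 0.479 and 0.507 FPKM in D1E6, 0.438 and 0.444 FPKM in E2E8, and 0.645 and 0.681 FPKM in E2G7. All KO libraries were above WT. *Lamb3* was called in *Dnttip1* KO cells (log2 0.74 ± 0.17 (SE), adjusted p = 0.051) and not in *Elmsan1* KO cells (log2 0.72 ± 0.23 (SE), adjusted p = 0.098). Its call in *Dnttip1* KO cells ended without the first or the second D2A7 library (log2 0.68 and 0.70) and without the first or the second WT library (log2 0.79 and 0.68, adjusted p = 0.23 and 0.26).

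The other laminin chains differed mainly between clones. *Lama3*, the alpha chain of epithelial laminin, had 0.998 and 1.05 FPKM in WT, 2.30 and 2.36 FPKM in D2A7, 1.01 and 1.16 FPKM in D1E6, 2.03 and 1.91 FPKM in E2E8, and 1.47 and 1.44 FPKM in E2G7. D1E6 thus overlapped WT, whereas the other clones lay above it. *Lama3* was called higher in *Elmsan1* KO cells (log2 0.66 ± 0.17 (SE), adjusted p = 0.064), a call that ended without either E2E8 library (log2 0.57 and 0.61) or without either WT library (log2 0.65 and 0.66, adjusted p = 0.29 and 0.27). *Lama5*, the most widespread alpha chain of adult tissues, had 19.8 and 20.3 FPKM in WT, 38.5 and 43.7 FPKM in D2A7, 26.4 and 24.9 FPKM in D1E6, 15.9 and 18.5 FPKM in E2E8, and 24.6 and 25.8 FPKM in E2G7. It lay above WT in 3 clones and below WT in E2E8, and was called in neither knockout. *Lamb1*, the beta partner of *Lama1* in the embryo, had 5.80 and 5.99 FPKM in WT, 7.69 and 7.81 FPKM in D2A7, 5.32 and 4.81 FPKM in D1E6, 3.47 and 3.75 FPKM in E2E8, and 5.80 and 5.86 FPKM in E2G7. *Lamb1* was thus above WT in D2A7 and below it in D1E6 and E2E8, and was called in neither knockout. In E2G7 it overlapped WT as deposited and lay below WT once the libraries were scaled. The ratio of *Lamb2* to *Lamb1* FPKM was 1.51 to 1.64 in WT and 2.26 to 4.13 in the KO libraries.

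**Figure D2:**
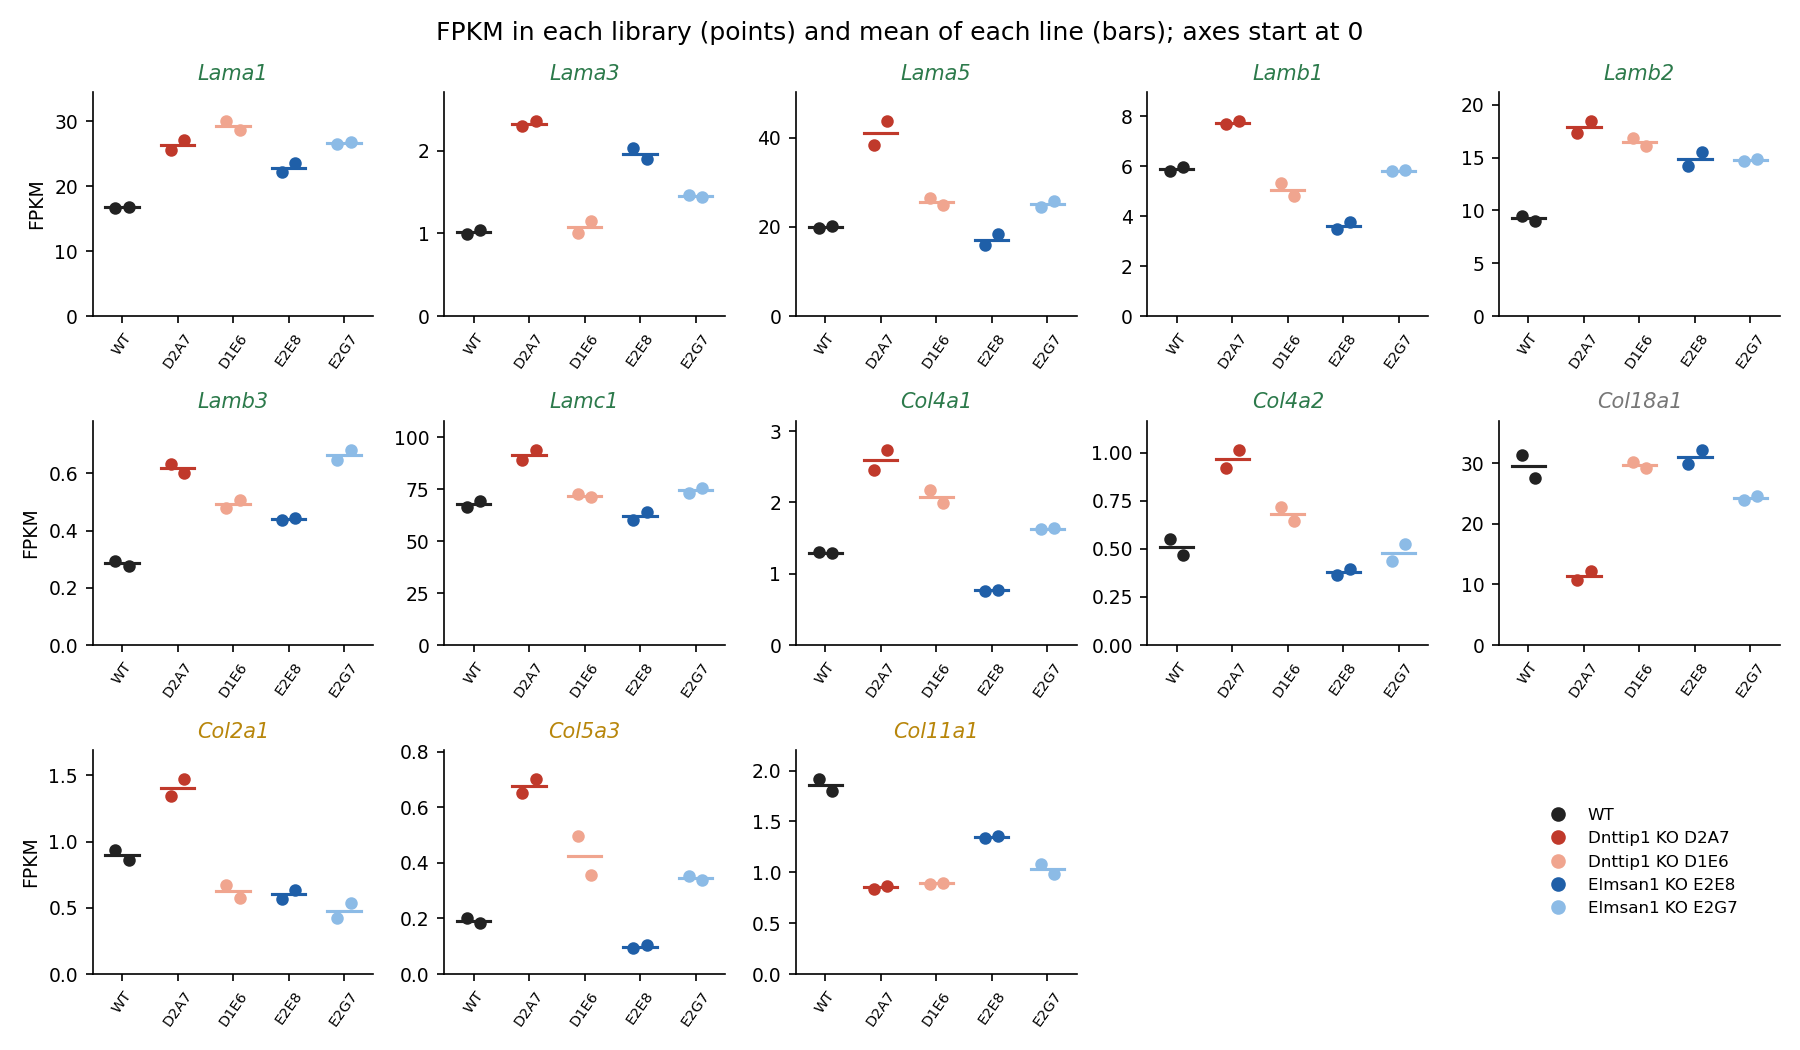
FPKM of 13 members in each library (points) with the mean of each line (horizontal bars), each panel on its own axis from 0. *Lamb2*, *Lama1* and *Lamb3* are above both WT libraries in all 8 KO libraries and *Col11a1* is below them, whereas *Col18a1* is lowest in D2A7 and *Col4a1* is below WT only in E2E8.

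The genes of collagen IV, the second network of basement membranes, varied between clones. *Col4a1* had 1.30 and 1.29 FPKM in WT, 2.45 and 2.73 FPKM in D2A7, 2.18 and 1.99 FPKM in D1E6, 0.763 and 0.773 FPKM in E2E8, and 1.62 and 1.65 FPKM in E2G7. Only the E2E8 libraries were below WT. *Col4a1* rose 1.71-fold in *Dnttip1* KO cells (log2 0.77 ± 0.15 (SE), adjusted p = 0.033) and differed by a log2 of −0.21 ± 0.36 (SE) in *Elmsan1* KO cells. *Col4a2* had 0.554 and 0.466 FPKM in WT, 0.919 and 1.01 FPKM in D2A7, 0.717 and 0.645 FPKM in D1E6, 0.365 and 0.396 FPKM in E2E8, and 0.435 and 0.528 FPKM in E2G7, and was called in neither knockout (log2 0.56 ± 0.22 (SE) and −0.23 ± 0.19 (SE)). The genes stand head to head on chromosome 8 (*Col4a1* from 11198423 to 11312826 on the − strand, *Col4a2* from 11312805 to 11449287 on the + strand) and their first exons share 22 bases. Chromosome 8 as a whole was higher in the KO clones. With the median of each chromosome set to 0 in every library, *Col4a1* in *Dnttip1* KO cells had a log2 fold change of 0.42 and was no longer called (adjusted p = 0.15). The call also ended without either WT library (log2 0.81 and 0.73, adjusted p = 0.19 for each).

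Among the fibrillar collagens, *Col11a1*, a minor chain that limits the width of cartilage fibrils, was called lower in both knockouts. Its level was 1.91 and 1.79 FPKM in WT, 0.837 and 0.868 FPKM in D2A7, 0.888 and 0.895 FPKM in D1E6, 1.34 and 1.35 FPKM in E2E8, and 1.08 and 0.981 FPKM in E2G7. The KO libraries were all below WT, and those of *Dnttip1* KO cells were the lowest. *Col11a1* fell 2.04-fold in *Dnttip1* KO cells (log2 −1.03 ± 0.11 (SE), adjusted p = 0.0076) and 1.55-fold in *Elmsan1* KO cells (log2 −0.64 ± 0.17 (SE), adjusted p = 0.063). The *Dnttip1* KO call held when each library was left out in turn, whereas that of *Elmsan1* KO cells ended without the first or second E2G7 library (log2 −0.60 and −0.56) and without the first or second WT library (log2 −0.56 and −0.71). The gene is on chromosome 3 (113733458 to 113923636, + strand).

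*Col5a3*, a chain of collagen V, moved the other way in *Dnttip1* KO cells. It had 0.203 and 0.182 FPKM in WT, 0.652 and 0.701 FPKM in D2A7, 0.496 and 0.356 FPKM in D1E6, 0.0930 and 0.103 FPKM in E2E8, and 0.354 and 0.340 FPKM in E2G7. Both *Dnttip1* KO clones and E2G7 were above WT and E2E8 was below it. The gene was called higher in *Dnttip1* KO cells (2.15-fold, log2 1.10 ± 0.27 (SE), adjusted p = 0.057), a call that ended without any one of 5 of the 6 libraries (log2 0.99 to 1.18) and held only without the second D1E6 library. *Col2a1*, the main collagen of cartilage, had 0.939 and 0.862 FPKM in WT, 1.35 and 1.47 FPKM in D2A7, 0.674 and 0.575 FPKM in D1E6, 0.567 and 0.637 FPKM in E2E8, and 0.422 and 0.535 FPKM in E2G7. D2A7 alone was above WT. *Col2a1* was called lower in *Elmsan1* KO cells (log2 −0.67 ± 0.18 (SE), adjusted p = 0.069), and the call ended without any one of 5 of the 6 libraries (log2 −0.58 to −0.76) and held only without the second E2E8 library. The remaining tested fibrillar chains, *Col5a1*, *Col5a2* and *Col27a1*, were called in neither knockout. *Col5a1* was nevertheless below both WT libraries in all 8 KO libraries, with 0.996 and 1.01 FPKM in WT and 0.591 to 0.930 FPKM in the knockouts.

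**Figure D3:**
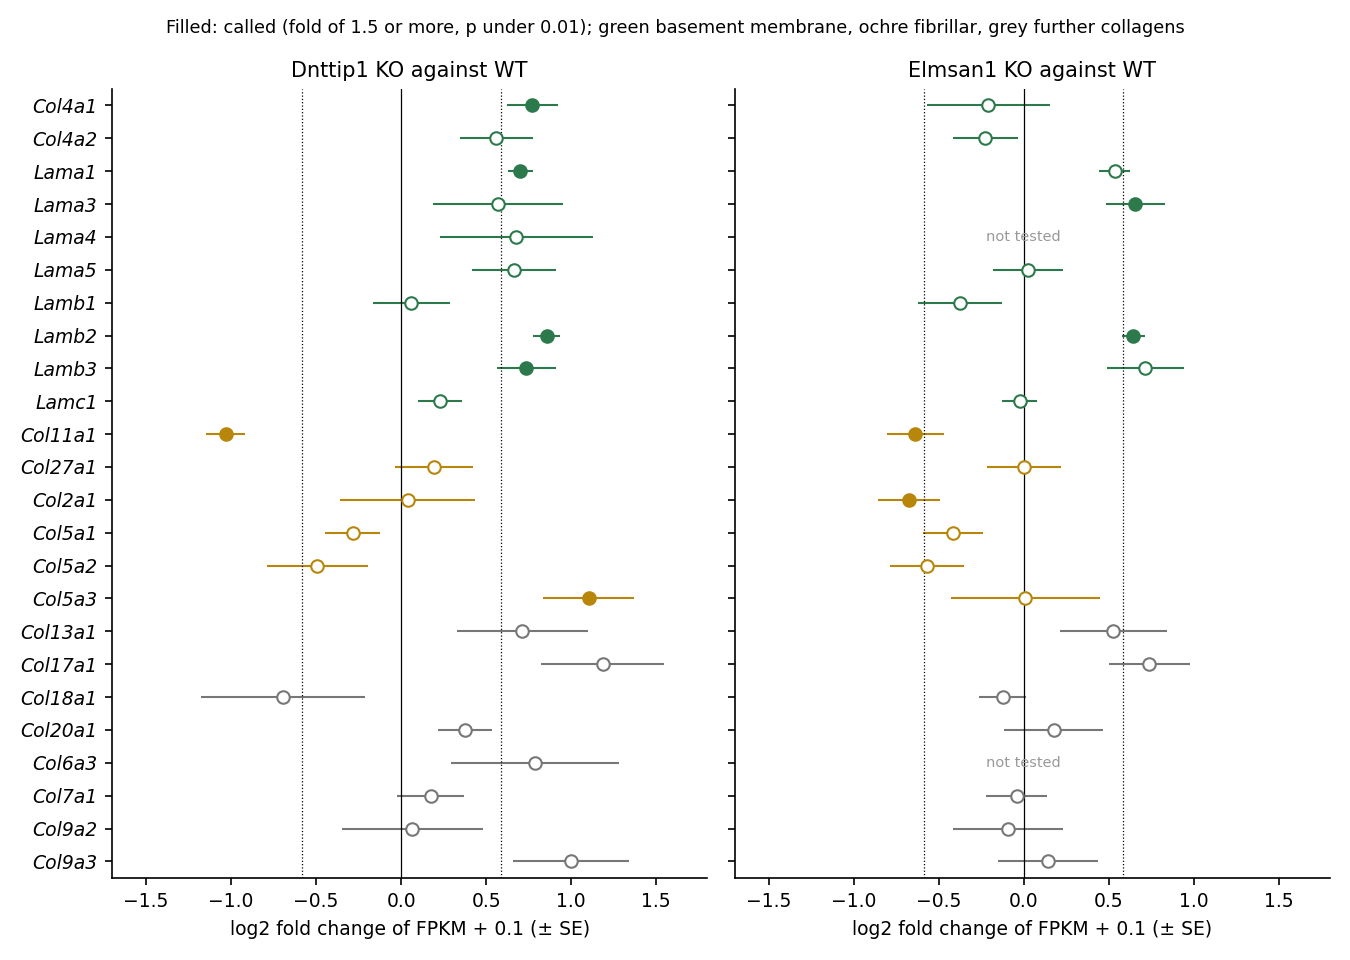
Log2 fold change of FPKM + 0.1 with its SE (bars) for tested members in *Dnttip1* KO (left) and *Elmsan1* KO cells (right) against WT, filled where called. Dotted lines mark a fold of 1.5. In *Dnttip1* KO cells all basement membrane chains drawn (green) lie above 0, and the fibrillar chains (ochre) spread to both sides from −1.03 to 1.10. Of the green chains, *Lama4* passed the filter of the *Dnttip1* KO comparison only through the D2A7 libraries.

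The sequences before the start sites of *Lamb2*, the member called higher in both knockouts, of *Col11a1*, the member called lower in both, and of *Col5a3*, the fibrillar chain called higher, are shown so that promoters of members that moved in different directions can be compared. They are from RefSeq on GRCm38.p6 and cover 185 bases each, from 250 to 66 bases before the annotated start, read along the gene. *Lamb2* is given at chr9:108479612-108479796 (+ strand), *Col11a1* at chr3:114030290-114030474 (+ strand) and *Col5a3* at chr9:20815133-20815317 (− strand). Capitals mark motifs found on either strand.
Lamb2: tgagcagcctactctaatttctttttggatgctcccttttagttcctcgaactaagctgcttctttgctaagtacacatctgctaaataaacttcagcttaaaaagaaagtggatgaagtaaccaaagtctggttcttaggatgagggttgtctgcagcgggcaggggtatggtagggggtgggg
Col11a1: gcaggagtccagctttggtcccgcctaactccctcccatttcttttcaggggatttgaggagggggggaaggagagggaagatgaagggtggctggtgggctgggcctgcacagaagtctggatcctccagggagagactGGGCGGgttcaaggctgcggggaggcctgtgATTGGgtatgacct
Col5a3: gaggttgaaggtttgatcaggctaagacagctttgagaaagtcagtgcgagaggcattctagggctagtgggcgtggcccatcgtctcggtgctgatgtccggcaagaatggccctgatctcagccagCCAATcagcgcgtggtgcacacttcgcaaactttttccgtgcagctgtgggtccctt

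A total of 5 motifs were searched on both strands of this window. The window ends 66 bases before the start, so a TATA box nearer to the start could not be found. The counts are of letters within the window only. The GC box (GGGCGG) was in 21.8% of the windows of all 32851 RefSeq promoters and the CCAAT box (CCAAT) in 25.9%. The letters of a TATA box (TATAAA) were in 8.5%, an ETS core (CCGGAAG) in 3.5% and an AP-1 site (TGACTCA) in 3.2%. Of the 44 promoters listed for 40 of the members, 15, 11, 4, 0 and 1 held them. The *Col11a1* window held a GC box 110 to 105 bases and a CCAAT box 79 to 75 bases before the start, the latter on the opposite strand, and the *Col5a3* window a CCAAT box 122 to 118 bases before the start. None of these letters occurred in the *Lamb2* window. The G + C content was 44.9% in *Lamb2*, 60.5% in *Col11a1* and 55.7% in *Col5a3*, beside a median of 51.4% over all promoters.

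Of the 26 further collagens, 8 could be tested in *Dnttip1* KO cells and 7 in *Elmsan1* KO cells, and limma called none in either knockout, with 2 and 1 of them at an unadjusted p under 0.05. *Col18a1*, whose product sits in basement membranes and releases endostatin, was the only abundant collagen. It had 31.4 and 27.6 FPKM in WT, 10.8 and 12.2 FPKM in D2A7, 30.3 and 29.3 FPKM in D1E6, 29.9 and 32.2 FPKM in E2E8, and 23.9 and 24.7 FPKM in E2G7. D2A7 stood apart from all other lines. *Col17a1*, a transmembrane collagen of hemidesmosomes, which anchor epithelia to laminin, is named after its values were seen. It had 0.217 and 0.261 FPKM in WT, 1.06 and 0.897 FPKM in D2A7, 0.471 and 0.459 FPKM in D1E6, 0.547 and 0.630 FPKM in E2E8, and 0.372 and 0.377 FPKM in E2G7. All KO libraries were above WT, although the pooled knockouts did not pass the threshold (log2 1.18 ± 0.36 (SE), adjusted p = 0.096, and log2 0.74 ± 0.24 (SE), adjusted p = 0.10).

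Basement membrane and fibrillar chains were then compared as classes. In *Dnttip1* KO cells, 11 of the 17 basement membrane chains could be tested, 5 were called higher and none lower (3.26% and 3.24% of all genes), and the median log2 fold change was 0.67. The tested chains and their median include *Lama4*, which was not called. It passed the filter only through the D2A7 libraries, where it was high. Of the 11 fibrillar chains 6 could be tested, 1 was called higher and 1 lower, and the median was −0.12. Of the basement membrane chains, 10 could be tested in *Elmsan1* KO cells, with 2 called higher, none lower (2.74% and 3.68% of all genes) and a median of 0.28. The 6 tested fibrillar chains had 2 called lower, none higher and a median of −0.49. With libraries from the same clone allowed to correlate, 3 of the 5 higher basement membrane calls in *Dnttip1* KO cells were kept, without *Col4a1* and *Lamb3*, and 1 of the 2 in *Elmsan1* KO cells, without *Lama3*. Of the fibrillar calls, *Col11a1* in *Dnttip1* KO cells was kept, and *Col5a3* there and both in *Elmsan1* KO cells were lost. The medians of the classes were thus 0.79 apart in *Dnttip1* KO cells and 0.77 apart in *Elmsan1* KO cells. The tested further collagens had a median of 0.54 in *Dnttip1* KO cells, with 7 above 0 and 1 below. In *Elmsan1* KO cells their median was 0.14. A positive median in *Dnttip1* KO cells was therefore not particular to the basement membrane chains. Among the further collagens, *Col6a3* passed the filter there only through the D2A7 libraries. No test was made of these class values, because the members were chosen with results of these libraries known.

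The summed FPKM of the basement membrane and fibrillar classes gave the same order. The basement membrane chains summed to 138 and 141 FPKM in WT, 211 and 224 FPKM in D2A7, 182 and 176 FPKM in D1E6, 145 and 155 FPKM in E2E8, and 172 and 176 FPKM in E2G7. Every KO library was above WT, E2E8 by the least. The fibrillar chains summed to 4.70 and 4.57 FPKM in WT, 4.51 and 4.82 FPKM in D2A7, and 2.97 to 3.47 FPKM in the other clones, so that D2A7 overlapped WT and the 3 other clones were below it. The ratio of the sums was 29.3 and 30.9 in WT and 43.2 to 57.9 in the KO libraries. Collagen IV on its own summed to 1.93 and 1.83 FPKM in WT, 2.64 to 3.77 FPKM in *Dnttip1* KO cells, 1.14 and 1.17 FPKM in E2E8 and 2.06 and 2.18 FPKM in E2G7. Sums are led by the abundant chains, and *Lamc1* alone made up 40.5% to 49.8% of the laminin sum.

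**Figure D4:**
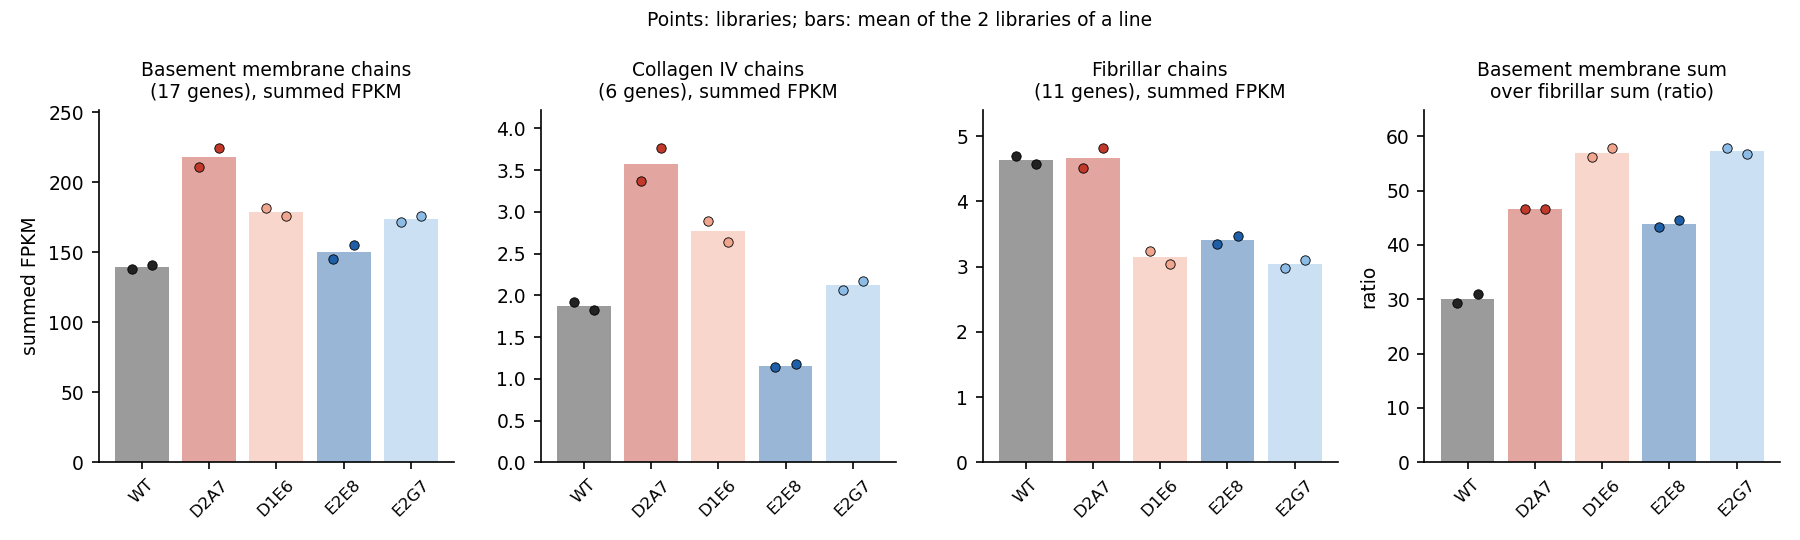
Summed FPKM of the 17 basement membrane chains, the 6 collagen IV chains and the 11 fibrillar chains, and the ratio of the first sum to the last, for each library (points) and line (bars, mean of 2 libraries). The ratio is 29.3 and 30.9 in WT and at least 43.2 in the KO libraries, while the collagen IV sum is below WT only in E2E8.

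Counted by overlap of scaled FPKM, 13 members had all 4 *Dnttip1* KO libraries above both WT libraries and 2 had them below, of 25 tested. Of the 13, *Lama4* passed the filter only through the D2A7 libraries. Over all genes tested, 21.1% were above and 20.7% below without overlap. For *Elmsan1* KO cells the counts were 6 above and 5 below of 23, beside 21.3% and 21.8%. All 8 KO libraries together were above WT for 6 of the 26 members tested in any comparison of knockouts, among them *Lama1*, *Lamb2*, *Lamb3*, *Col17a1* and *Col11a2*, and below WT for 2, *Col11a1* and *Col5a1*. Over all 17870 such genes, 12.2% were above and 12.1% below. Of the 6 members above, 4 were laminin chains, and *Col11a2* was at most 0.106 FPKM. *Col11a2* reached 0.1 FPKM only in the first D2A7 and the first E2E8 library, so it passed the filter through KO libraries alone.

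The knockouts were compared directly as well, 4 libraries against 4 with no shared control. Of 26 tested members, *Col4a1* (log2 0.98 ± 0.27 (SE), adjusted p = 0.30) and *Col4a2* (log2 0.79 ± 0.18 (SE), adjusted p = 0.29) passed the unadjusted threshold as higher in *Dnttip1* KO cells. None was called lower, with 1 lower at an unadjusted p under 0.05. Over all 17600 genes the shares were 1.11% higher and 0.415% lower, and no member had an adjusted p under 0.05. Without either D2A7 library, the first D1E6 library or either E2E8 library *Col4a1* was not called (log2 0.81 to 1.01). With libraries from the same clone allowed to correlate, neither gene was called. For *Lamb2* and *Lama1* the differences between the knockouts were 0.21 ± 0.06 and 0.17 ± 0.08 (SE) on the log2 scale, both under the fold threshold.

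Clones of a knockout differed from each other at many members. Between D2A7 and D1E6, 9 of 25 tested members were called higher in D2A7 and 1 lower, beside 9.2% and 3.73% of all 16996 genes. *Col18a1* was 2.57-fold lower in D2A7 (log2 −1.36 ± 0.07 (SE), adjusted p = 0.00052). *Col2a1* (log2 1.07 ± 0.12 (SE), adjusted p = 0.0037), *Lama3* (log2 1.05 ± 0.09 (SE), adjusted p = 0.0019), *Lama5* (log2 0.69 ± 0.07 (SE), adjusted p = 0.0029) and *Lamb1* (log2 0.62 ± 0.07 (SE), adjusted p = 0.0029) were higher in D2A7. The other 5 called members, *Col17a1*, *Col6a3*, *Col9a2*, *Col9a3* and *Lama4*, were at most 1.38 FPKM in any library. Of these, *Col6a3* and *Lama4* passed the filter only through the D2A7 libraries, where they were high. The *Lamb1* call ended without the second D1E6 library, where the log2 difference was 0.54. *Lamb2*, *Lama1* and *Col11a1*, called in *Dnttip1* KO cells under every alternative, were not called between these clones (log2 0.13, −0.14 and −0.05).

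Between E2E8 and E2G7, 3 of 23 tested members were called lower in E2E8 and 3 higher, beside 3.27% and 10.5% of all 16727 genes. *Col4a1* (log2 −1.01 ± 0.08 (SE), adjusted p = 0.0013), *Col5a3* (log2 −1.18 ± 0.15 (SE), adjusted p = 0.0038) and *Lamb1* (log2 −0.69 ± 0.05 (SE), adjusted p = 0.0013) were lower in E2E8. *Col20a1*, *Col9a2* and *Col9a3*, chains of collagens that attach to the surface of fibrils, were higher in E2E8 than in E2G7, with at most 0.711 FPKM in either clone. With any single library left out, 0 or 1 member was called higher in E2E8. *Lamb2* differed by 0.00 ± 0.05 (SE) between the clones.

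Each clone was finally set against WT, with the WT libraries shared by all 4 comparisons. In D2A7, 13 of 25 tested members were called higher and 2 lower (all genes, 9.75% and 4.95%), and 9 of 11 tested basement membrane chains were among the higher ones. Of these 13 members, *Col6a3* and the laminin chain *Lama4* passed the filter only through the D2A7 libraries, where they were high. In D1E6 the counts were 5 and 1 of 23 (4.39% and 5.24%), in E2E8 4 and 3 of 23 (9.61% and 5.4%), and in E2G7 3 and 2 of 23 (3.47% and 6.07%). Leaving D2A7 aside, the *Dnttip1* KO clone D1E6 thus had *Lamb2*, *Lama1*, *Col4a1* and *Col17a1* among those called higher and *Col11a1* lower. *Lamb2* was called in 4 of 4 clones, *Lama1*, *Col17a1* and *Col11a1* in 3 of 4, and *Lamb3* and *Lama3* in 2 of 4. *Col4a1* was called higher in D2A7 and D1E6 (log2 0.93 and 0.61) and lower in E2E8. It lies on chromosome 8, whose genes had a median log2 difference from WT of 0.36 in D2A7 and 0.36 in D1E6. The comparisons of single clones with WT were not repeated with the chromosome medians set to 0.

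**Figure D5:**
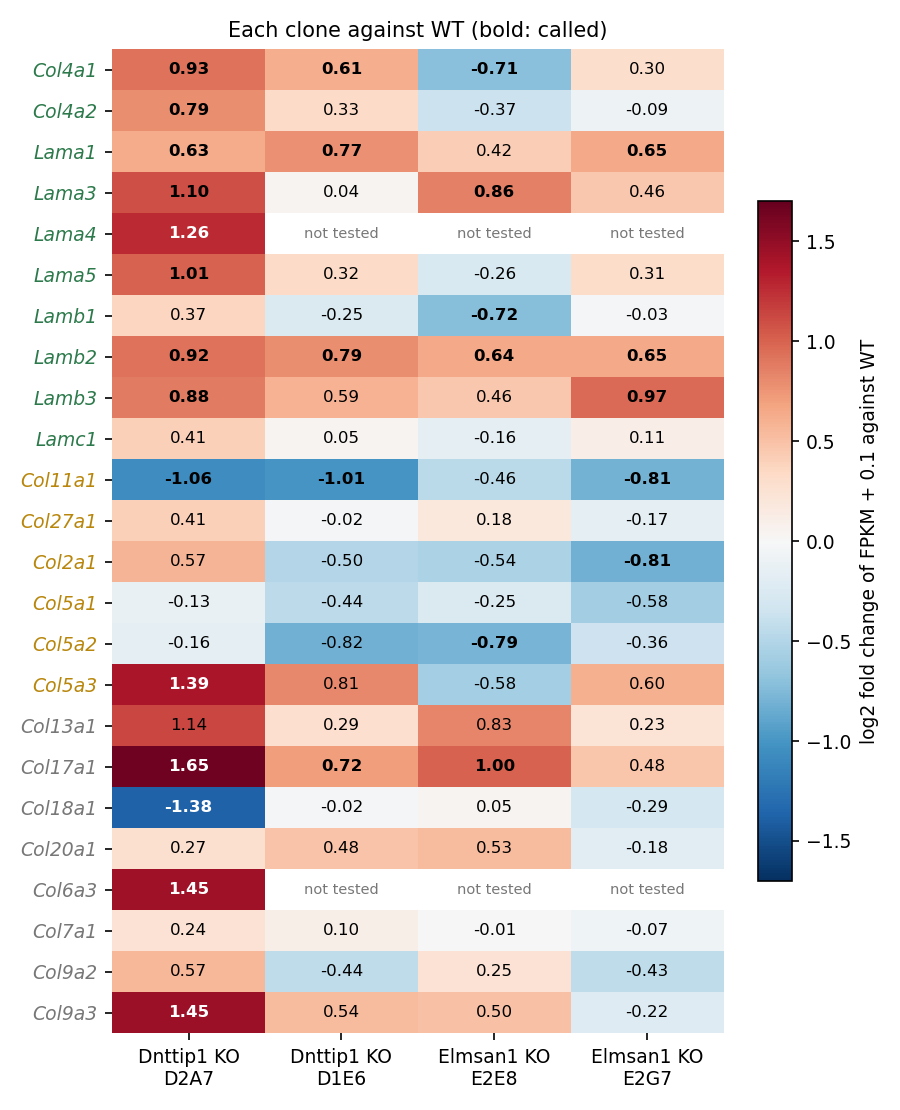
Log2 fold change of FPKM + 0.1 of each clone against WT for tested members, with called values in bold and colour from blue (lower) to red (higher). *Lamb2* is between 0.64 and 0.92 in all 4 clones, and *Col11a1* between −1.06 and −0.46, while *Col4a1* runs from −0.71 to 0.93.

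Among other cells that make these matrix genes, the markers of endoderm and of fibroblasts had their highest sums in D2A7. The 14 markers of primitive and parietal endoderm, the basement membrane secreting tissue of the early embryo, summed to 1.66 to 1.83 FPKM in WT, 2.23 to 2.63 FPKM in D2A7, 0.942 to 1.25 FPKM in D1E6, 1.14 to 1.17 FPKM in E2E8 and 1.11 to 1.26 FPKM in E2G7. Of these markers, *Gata4*, *Hnf4a* and *Thbd* were called higher in D2A7 than in D1E6, and *Thbd*, at 0.430 and 0.489 FPKM in D2A7, overlapped WT (0.333 and 0.476 FPKM). *Sox7* had 0.0439 and 0.0513 FPKM in D2A7, less than in WT (0.160 and 0.176 FPKM) or D1E6 (0.126 and 0.170 FPKM). *Gata6* and *Foxa2* were highest in a WT library, *Sox17* was at most 0.112 FPKM in any library, and *Afp* was at 0 in both D2A7 libraries. In D1E6, E2E8 and E2G7 the sum of the endoderm markers was below that of WT. The 12 fibroblast markers summed to 0.802 to 0.911 FPKM in WT, 1.53 to 1.73 FPKM in D2A7 and 0.663 to 1.03 FPKM in the other clones, with *Thy1* and *Pdgfrb* called higher in D2A7 than in D1E6, whereas *Fbn1* had 0.236 and 0.305 FPKM in D2A7 and 0.383 and 0.422 FPKM in D1E6, and *Prrx1*, *Fap* and *Acta2* were at 0 in D2A7. The part of such cells in the values of D2A7 or of any other clone was not tested. The 9 trophoblast markers summed to 39.0 to 40.0 FPKM in WT, 28.5 FPKM in D2A7, 31.7 to 32.0 FPKM in D1E6 and 33.0 to 33.2 FPKM in E2G7. E2E8, with 38.5 to 40.4 FPKM, overlapped WT. Most of this sum was *Tfap2c* (36.5 and 35.7 FPKM in WT). The 5 neural markers analysed summed to 50.6 to 96.5 FPKM, mostly *Tubb3* (57.9 and 53.9 FPKM in WT), and were below WT in E2E8 and above it in the other clones. Sums led by 1 gene say little about such cells. Of the neural markers, *Nes* was called higher in both knockouts.

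Partners of these chains were read from lists in the same way. Of the 18 other components and linkers of basement membranes, such as nidogens and perlecan, 14 could be tested in each comparison. In *Dnttip1* KO cells 1 was called higher (*Sparc*, a collagen-binding glycoprotein) and none lower, beside 3.26% and 3.24% of all genes (median log2 fold change 0.14). In *Elmsan1* KO cells 2 were called lower (*Nid1*, which links laminin to collagen IV, and *Smoc1*) and none higher, beside 3.68% and 2.74% of all genes (median 0.10). Of 27 genes analysed for collagen modification and secretion, 21 could be tested. There were 3 called higher and 2 lower in *Dnttip1* KO cells, beside 3.26% and 3.24% of all genes. In *Elmsan1* KO cells 1 was called higher and 1 lower, beside 2.74% and 3.68% of all genes. Of the 13 receptors of laminin and collagen, 12 could be tested in *Dnttip1* KO and 11 in *Elmsan1* KO cells. *Itga10* was called lower in both knockouts and *Itga7* in *Elmsan1* KO cells, and none was called higher. The shares of all genes called lower were 3.24% and 3.68%. Across these lists, the genes called in both knockouts were *Loxl4*, *Glt25d1* and *Itga10*. With libraries from the same clone allowed to correlate, *Itga10* was called in neither knockout (adjusted p = 0.27 and 0.50), and *Itga7* (adjusted p = 0.26) and *Loxl4* (adjusted p = 0.21) were no longer called in *Elmsan1* KO cells, while the other calls of these lists held.

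*Loxl4*, an oxidase that crosslinks collagen, had 4.93 and 5.39 FPKM in WT, 1.37 to 1.91 FPKM in *Dnttip1* KO cells and 1.90 to 3.43 FPKM in *Elmsan1* KO cells. It was lower in both (log2 −1.66 ± 0.15 (SE), adjusted p = 0.0051, and log2 −1.02 ± 0.28 (SE), adjusted p = 0.068). *Glt25d1*, the galactosyltransferase of hydroxylysine in collagen, had 67.0 and 71.7 FPKM in WT and 95.4 to 132 FPKM in the KO libraries, with no overlap. It was higher in both (log2 0.65 ± 0.08 (SE), adjusted p = 0.0095, and log2 0.67 ± 0.16 (SE), adjusted p = 0.046). *Itga10*, a collagen-binding integrin chain, had 0.446 and 0.371 FPKM in WT and 0.108 to 0.258 FPKM in the KO libraries (log2 −1.16 ± 0.20 (SE), adjusted p = 0.023, and log2 −0.96 ± 0.27 (SE), adjusted p = 0.071).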

How the data were processed

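Total RNA of 10 mESC libraries (WT and 4 KO clones, 2 each) was sequenced from both ends after stranded library preparation. The authors mapped to NCBIM37, obtained gene counts through HTSeq and deposited FPKM values. Their processing notes name edgeR 3.16.5, limma and R 3.3.1. The strand setting of the counting and the sequencer of each library are not given in the sources used here, so reads of exons shared by genes on opposite strands, such as the 22 bases of *Col4a1* and *Col4a2*, may be split. GENCODE vM1 on NCBIM37 held 97.2% of the 34591 gene identifiers (985 were not matched) and all 54 members, and gave positions and exon lengths, although the methods name a later GENCODE release. In each library, FPKM times exon length gave whole fragments within 0.05 for 98.3% to 98.6% of values under 100 fragments, from which depth was read.

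Libraries were scaled by their median ratio to the geometric mean across 11270 genes that reached 1 FPKM in every library (factors 0.965 to 1.01). FPKM printed in the text are as deposited. Genes reaching 0.1 FPKM in 2 or more libraries entered a comparison and were fitted as log2(FPKM + 0.1), a scale that understates changes of low genes, with limma 3.58.1 in R 4.3.3 (moderated two-sided test with variance trend, Benjamini-Hochberg adjustment over all genes tested). The fits were also run on simulated data with independent noise in each library and no difference between clones. Such data cannot check the p-values where the clones of a knockout differ, and no conclusion is drawn from them. The calls required a fold of 1.5 or more with unadjusted p under 0.01, as in the study's methods. Named with values in every library were 14 members, namely those called in a comparison of the knockouts with WT or each other, those called between clones of a knockout that averaged 1 FPKM or more, and those averaging 5 FPKM or more. Of the further lists, the genes called in both knockouts were named. Of the 14 members, 1 is not reported here. The members and lists were chosen with earlier results of these data known.

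The replicate numbers of the labels were checked for pairing: correlations of the replicate differences between lines ran from −0.19 to 0.34, so the numbers were not taken to pair the libraries. The fragments of the 2 libraries of a line differed by more than counting noise (median chi-square per gene 0.937 to 1.39), and none was counted as a duplicate. Alternatives were other pseudocounts, filters, scalings, variance models and samples in the fit, correlated libraries of a clone, a replicate block, adjusted p for the calls, voom on the recovered fragments, and each library left out in turn. Promoter windows are from RefSeq (GRCm38.p6). Tables and figures were made with Python 3.11.15, pandas 2.3.3 and matplotlib 3.10.9.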

Additional observations from a re-analysis of the deposited data

Results flagged for a closer look

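At 8 points clones of the same knockout differed from each other in the direct limma comparison of 2 libraries with 2. D2A7 differed from D1E6 at *Col18a1* by a log2 of −1.36, at *Col2a1* by 1.07, at *Lama3* by 1.05, at *Lama5* by 0.69 and at *Lamb1* by 0.62. E2E8 differed from E2G7 at *Col4a1* by −1.01, at *Col5a3* by −1.18 and at *Lamb1* by −0.69. *Lamb1* was the one named member on both lists. In 28 groups of 4 libraries (14 named members in each knockout), no library stood apart from the other 3 by Dixon's criterion. Each group holds 2 libraries of each clone, so where the clones differ the criterion can hardly flag a library. No conclusion is drawn from it.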

How the results depend on the processing

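Of the 1254 values of single genes recomputed under the alternatives, 1159 kept their side of the threshold, 76 lost the call and 19 gained it. No called value changed sign, but 30 values of 10 uncalled differences near 0 did, such as *Col2a1* and *Lamb1* in *Dnttip1* KO cells and *Col5a3* and *Lama5* in *Elmsan1* KO cells. In *Dnttip1* KO cells, *Lamb2*, *Lama1* and *Col11a1* were called in all 19 alternatives and *Col4a1* in 14, while *Lamb3* and *Col5a3* kept the call in 10 and 8 of 18. In *Elmsan1* KO cells, *Lamb2* kept it in 18 of 19, *Lama3* and *Col11a1* in 9 of 19 and *Col2a1* in 6 of 18. WT had 2 libraries, the shallowest of the series, and they entered every comparison with WT.

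The number of members called higher in *Dnttip1* KO cells was 3 with a pseudocount of 1, 3 with the libraries of a clone correlated and 12 in one fit of all 10 libraries, where 2 were lower. In *Elmsan1* KO cells, the number called higher was 1 with a pseudocount of 1, without a filter, with correlated libraries, with an adjusted p under 0.05 and with voom, and 4 in one fit of all libraries. There the number called lower was 0 with a pseudocount of 1, with correlated libraries and with an adjusted p under 0.05, and 1 with a pseudocount of 0.01, no filter, a mean of at least 1 FPKM, unscaled FPKM or centred chromosomes. Between the knockouts, 1 was higher with a pseudocount of 1 or a mean of at least 1 FPKM, 8 in one fit of all libraries, and 0 with correlated libraries or an adjusted p under 0.05. In D2A7 against D1E6, 2 were higher with a pseudocount of 1 and 5 with a mean of at least 1 FPKM. In E2E8 against E2G7, 0 were lower with a pseudocount of 1 and 5 with quantile normalization or voom, and 0 were higher with a pseudocount of 1, a mean of at least 1 FPKM or quantile normalization and 6 with voom. The causes were not tested.

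The difference of medians between basement membrane and fibrillar chains in *Dnttip1* KO cells was 0.42 with a pseudocount of 1, 1.69 at a mean of at least 1 FPKM and 0.53 without a filter. In *Elmsan1* KO cells it was 0.35 and 0.85 with pseudocounts of 1 and 0.01, 0.92 at a mean of at least 1 FPKM and 0.12 without a filter. At a mean of at least 1 FPKM, *Col11a1* was the only fibrillar chain left in either comparison. The values at that filter thus set the basement membrane median against *Col11a1* alone. With each library left out in turn the difference of medians was 0.70 to 0.85 and 0.68 to 0.82. The counts then ran from 3 to 6 higher in *Dnttip1* KO cells (3 without either WT library), 0 to 2 lower and 0 to 2 higher in *Elmsan1* KO cells, 1 to 6 higher between the knockouts and 0 to 1 higher in E2E8 against E2G7.

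With a replicate block, the pairing that the numbers of the labels would give, 4 members were higher and 1 lower in *Dnttip1* KO cells, *Lamb3* and *Col5a3* being lost (adjusted p = 0.12 for each). In *Elmsan1* KO cells *Lamb2* remained, 1 higher and 0 lower, and between the knockouts 1 higher, *Col4a2*. The numbers were not taken to pair the libraries, since the correlations of their differences were −0.19 to 0.34. Over all genes, 565 lower and 569 higher calls in *Dnttip1* KO cells and 633 and 472 in *Elmsan1* KO cells became 289 and 251, and 298 and 227, with a pseudocount of 1. They became 921 and 1240, and 949 and 1009, in one fit of all libraries, and 255 and 283, and 253 and 233, with correlated libraries. Without the first WT library they were 245 and 354, and 300 and 322, and without the second 266 and 422, and 317 and 365. Voom gave 629 and 307 in *Elmsan1* KO cells.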

Other observations

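The RNA of genes for proteins that fold, hydroxylate and carry collagen was measured in the same libraries, and some of these genes differed from WT in *Dnttip1* KO cells. *Serpinh1*, the collagen chaperone HSP47, had 16.5 and 14.5 FPKM in WT and 28.3 to 30.7 FPKM in *Dnttip1* KO cells (log2 0.88 ± 0.08 (SE), adjusted p = 0.0051), with 19.1 to 23.4 FPKM in *Elmsan1* KO cells. *Plod1*, a lysyl hydroxylase, had 6.50 and 6.46 FPKM in WT and 10.3 to 13.9 FPKM in *Dnttip1* KO cells (log2 0.84 ± 0.14 (SE), adjusted p = 0.022). *P4ha1*, a catalytic subunit of prolyl hydroxylase, was lower, with 11.5 and 12.4 FPKM in WT and 5.79 to 6.59 FPKM in *Dnttip1* KO cells (log2 −0.94 ± 0.07 (SE), adjusted p = 0.0042). These genes were chosen for their calls. E2G7 had 6.46 and 6.26 FPKM of *P4ha1*, less than both E2E8 libraries, the higher of which had 11.1 FPKM.

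*Nid1*, the linker between laminin and collagen IV, had 39.4 and 41.4 FPKM in WT, 76.2 and 78.2 FPKM in D2A7 and 25.4 to 29.0 FPKM in the other 3 clones, so D2A7 lay above WT and the others below. It was called lower in *Elmsan1* KO cells (log2 −0.60 ± 0.07 (SE), adjusted p = 0.0064). *Smoc1*, a matricellular protein of basement membranes, had 4.02 and 3.58 FPKM in WT, 2.12 and 2.04 FPKM in D2A7 and 0.605 to 0.944 FPKM in the other clones.

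Some low collagen chains that could not be tested are given as values. *Col4a5*, a collagen IV chain of adult basement membranes, had 13 and 15 fragments in the WT libraries, which were the shallowest, and 0 to 8 in the KO libraries. Its FPKM was 0.0622 and 0.0589 in WT and at most 0.0224 in the knockouts. *Col22a1*, found at tissue junctions, had 0.0804 and 0.0802 FPKM in WT and 0.0184 to 0.0647 FPKM in the KO libraries. *Col6a1*, a chain of the beaded filaments of collagen VI, had 0.102 and 0.0900 FPKM in WT and 0.0183 and 0.0128 FPKM in D2A7. These were chosen after their values were seen.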
